A study of Mus musculus with 4 samples.

Results

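DNA methylation in mouse cells is written, copied and removed by a small set of proteins, and the RNA levels of 10 of them were examined in embryonic stem (ES) cells with and without the transcription factor Klf5. The genes were Dnmt3a, Dnmt3b and Dnmt3l, Dnmt1 and Uhrf1, Tet1, Tet2 and Tdg, and Trim28 and Zfp57. Members were all rows of the deposited array table whose platform annotation names 1 of these genes alone. This gave 22 probe sets of 9 genes, among 45037 probe sets in all and 18193 genes with a probe set of their own. Tdg, the glycosylase that cuts out oxidised methylcytosine, has 3 probe sets that the annotation also assigns to pseudogenes of it, so Tdg was not analysed here. All 22 probe sets passed the filter on dim signals.

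Methyl groups are placed on new CpG sites by Dnmt3a and Dnmt3b with the catalytically inactive cofactor Dnmt3l. They are copied to the new strand at replication by Dnmt1, which Uhrf1 recruits to half-methylated DNA. Tet enzymes oxidise methylcytosine, the first step of its removal, and Zfp57 brings the corepressor Trim28 to imprinted regions, where methylation is kept through early development. Mouse ES cells in serum express the de novo enzymes and carry much methylated DNA, and the short Dnmt3a isoform, made from a start site inside the gene, is the prevailing one in these cells.

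The arrays compared 2 wild-type (WT) ES cell clones with 2 Klf5 knockout (KO) clones, 1 Affymetrix array per clone and thus n = 2 per group. Every clone was kept in ES medium containing 15% serum together with LIF, a signal that holds mouse ES cells undifferentiated, and total RNA was hybridised. Each sample is a single clone. Mouse strain, parental line, the deleted part of Klf5, any feeder layer and the dates of culture are not given in the labels used here. The p-values and SEs (limma) rest on the spread between these clones combined with a variance estimated over all probe sets tested. With 1 array per clone, spread between clones, cultures and arrays cannot be told apart.

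Klf5 itself read 2398 and 1782 in WT clones 1 and 2, versus 34.8 and 49.9 in KO clones 1 and 2 on its brightest probe set (log2 change -5.17), which follows the labels. A dimmer Klf5 probe set read 102 and 88.6 in WT, versus 82.6 and 61.03 in KO, and did not pass (-0.35, adjusted p = 0.36 by limma). Which probes lie in the deleted part of the gene is not known here. These are quantile normalized intensities, the scale used for all intensities below unless called deposited. The deposited arrays differed in level by up to 1.65 times, with WT clone 1 brightest. After normalization the arrays correlated at 0.986 within each genotype and between 0.972 and 0.979 across genotypes. Of the 12 ES cell markers examined, 0 passed the test in either direction (limma; 1 lower and 0 higher at an unadjusted p under 0.05), with a median log2 change of -0.16. By sign, 9 were negative and 3 positive. Both KO clones read below both WT clones for 6 and above them for 1, beside 29.7% and 25.9% of all genes. Esrrb had the largest fall, -0.67 (adjusted p = 0.13 by limma), and its other probe sets had -0.93 (adjusted p = 0.0503) and -0.28. The brightest of the list, the pluripotency genes Dppa5a (10276 and 10142 in WT, 10124 and 10837 in KO), Zfp42 and Fbxo15, were bright on all arrays. Of 19 measured fibroblast and feeder cell markers, 16 rose in KO and 0 fell (0 lower and 18 higher at an unadjusted p under 0.05). Of all genes, 2.94% were called higher and 1.34% lower. The filter on dim signals took the mean of all 4 arrays, so a marker dim in WT could be counted only by being high in KO. Such markers were Dcn (mean 2.52 in WT, 65.5 in KO), Prrx1 (5.32 and 183) and Col6a1 (10.5 and 188). The summed intensity of the 19 markers was 3437 and 2796 in WT, versus 12586 and 12064 in KO. S100a4, Col1a2 and Bgn rose by 5.64, 3.87 and 3.67 on the log2 scale. Fibroblast marker levels thus moved with the genotype in the same arrays as every difference reported here, and their part in these differences was not tested. In RNA from whole cultures, fewer cells of a type and less RNA per cell cannot be told apart.

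The member genes whose levels differed most between the genotypes were Uhrf1, Dnmt1 and Dnmt3a, so sequences upstream of their start sites are shown first. Only Uhrf1 had a probe set that passed the test given below. Not every window of these genes is printed, and those printed were picked by hand. They are the 250 bases before RefSeq start sites on GRCm38.p6, 5′ to 3′ on the gene's strand, with windows numbered along the gene. Capitals mark CACCC or its reverse complement GGGTG, the core of many Kruppel-like factor sites, searched on both strands.
Uhrf1 window 1 (chr17:56303087-56303336, plus strand): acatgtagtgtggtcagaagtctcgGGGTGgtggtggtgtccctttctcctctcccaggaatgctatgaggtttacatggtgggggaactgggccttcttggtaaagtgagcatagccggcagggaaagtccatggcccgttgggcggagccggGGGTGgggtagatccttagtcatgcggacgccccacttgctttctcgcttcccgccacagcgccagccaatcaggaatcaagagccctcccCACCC
Uhrf1 window 2 (chr17:56304063-56304312, plus strand): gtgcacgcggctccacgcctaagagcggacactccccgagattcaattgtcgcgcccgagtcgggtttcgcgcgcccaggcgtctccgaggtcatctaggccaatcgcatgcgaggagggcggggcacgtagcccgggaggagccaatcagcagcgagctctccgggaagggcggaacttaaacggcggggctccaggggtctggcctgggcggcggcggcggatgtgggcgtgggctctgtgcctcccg
Dnmt1 window 2 (chr9:20952980-20953229, minus strand): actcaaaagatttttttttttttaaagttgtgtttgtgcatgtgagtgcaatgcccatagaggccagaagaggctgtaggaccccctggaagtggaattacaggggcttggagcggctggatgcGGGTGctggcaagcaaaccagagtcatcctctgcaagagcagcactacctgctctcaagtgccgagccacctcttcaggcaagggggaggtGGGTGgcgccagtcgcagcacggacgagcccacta
Dnmt3a window 1 (chr12:3806730-3806979, plus strand): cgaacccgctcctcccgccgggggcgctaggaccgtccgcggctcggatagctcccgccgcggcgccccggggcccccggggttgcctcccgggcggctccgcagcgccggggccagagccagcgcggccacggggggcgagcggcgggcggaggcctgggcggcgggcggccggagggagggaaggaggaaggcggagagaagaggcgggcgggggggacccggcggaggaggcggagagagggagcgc
Dnmt3a window 3 (chr12:3891494-3891743, plus strand): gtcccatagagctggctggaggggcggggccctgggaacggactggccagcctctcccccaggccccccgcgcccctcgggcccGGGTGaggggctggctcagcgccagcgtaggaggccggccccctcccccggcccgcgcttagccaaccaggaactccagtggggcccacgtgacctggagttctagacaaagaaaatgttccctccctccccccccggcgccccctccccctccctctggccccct
The upstream Uhrf1 window held 3 matches, as many or more than which occur in 6.92% of all 32851 windows of this length, and its CpG-dense downstream window held 0. Dnmt1 window 2 held 2 (21.1% of windows have as many), Dnmt3a window 1 held 0 and window 3 held 1 (52% have as many). A match is only a run of letters and not a measured site, and the arrays hold no binding data. The first Dnmt3a window contained 38 CpG dinucleotides, a number that 1.88% of windows reach, and window 3 contained 15. The second Uhrf1 window contained 30 (5.94% of windows) and Dnmt1 window 2 contained 7 (46.3%), against a median of 6 over all windows. Of the windows not printed, Dnmt1 window 1 held 0 matches and 2 CpG dinucleotides, Dnmt1 window 3 held 3 matches and 26 CpG dinucleotides (9.59% of windows), and Dnmt3l window 3 held 6 matches, the most among these genes (0.231% of windows have as many). Over all 10 genes, 10 of 19 windows held a match, beside 52% of all windows.

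Most members read lower without Klf5, but only 1 probe set passed the test. That probe set, of Uhrf1, was lower (1 of 22; limma, Benjamini-Hochberg adjusted p under 0.05), where 1.25% of all probe sets tested were called lower, and 0 were higher, where 2.44% were. At an unadjusted p under 0.05, 5 member probe sets were lower and 2 higher, beside 10.6% and 9.77% of all probe sets. With each gene represented by its brightest probe set (an _x_at probe set only if nothing else was kept), 0 of 9 genes passed in either direction, with 2 lower and 1 higher at an unadjusted p under 0.05. The background for genes was 1.34% called lower and 2.94% called higher, and 10.6% lower and 10.9% higher at the unadjusted p.

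By sign, 18 of 22 probe sets and 8 of 9 genes had negative changes, and the median over the genes was -0.38, beside -0.024 over all 13023 genes tested. That median was -0.60 without WT clone 1, -0.19 without WT clone 2, -0.20 after centring on the ES cell markers, -0.65 after median centring and -0.69 as deposited. The median of all probe sets was -0.012 in the main setting, -0.060 after median centring and -0.098 as deposited. Both KO clones read below both WT clones for 12 of the 22 probe sets, where 28.4% of all probe sets did so, and above them for 3, where 23.9% did. For single genes this held for 6 lower and 1 higher of 9, beside 29.7% and 25.9%. Probe sets of a gene measure the same RNA, so these counts are fewer independent values than they appear. The negative sign was shared by 7 of 9 genes when arrays were centred on the ES cell markers, a scaling that moved the median of all probe sets to 0.16, and by 7 of 9 without WT clone 2.

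**Figure D1:**
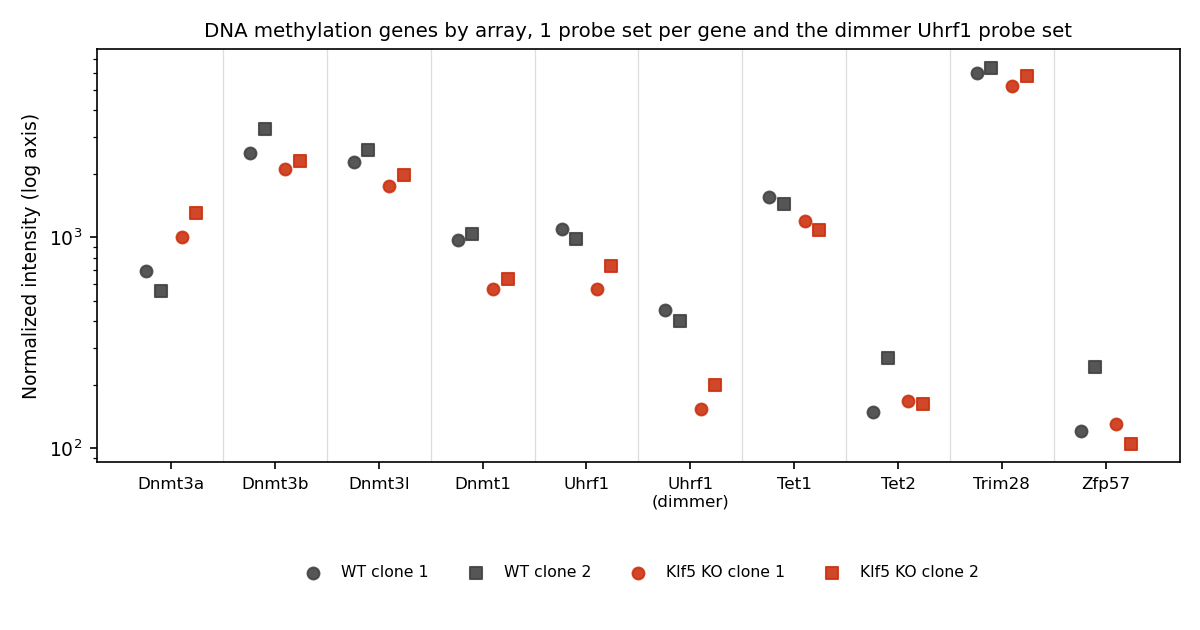
Normalized intensity (log axis) of each gene's representative probe set and of the dimmer Uhrf1 probe set on the 4 arrays, with circles for clone 1 and squares for clone 2, WT in grey and Klf5 KO in red. Levels of different probe sets are not comparable with each other. Both KO clones lie below both WT clones for Dnmt1, Uhrf1 and Tet1 and above them for Dnmt3a, while the genotypes overlap for Tet2 and Zfp57.

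Maintenance genes gave the clearest separation. Uhrf1, the reader of half-methylated CpG sites, is covered by 2 probe sets. The dimmer one (1415811_at) read 451 and 403 in WT clones 1 and 2, versus 153 and 200.2 in KO clones 1 and 2. Both KO clones were thus far below both WT clones. Expression fell by 1.21 ± 0.20 on the log2 scale (SE from the limma fit, 2 clones per group; 2.31-fold, adjusted p = 0.014). The brighter one (1415810_at) read 1096 and 985 in WT, versus 568 and 730.0 in KO. It was lower in both KO clones as well, with a log2 change of -0.68 ± 0.20 that did not pass (adjusted p = 0.10). When both were averaged, Uhrf1 passed with a log2 change of -0.94 (adjusted p = 0.011). The call of the dimmer probe set was lost without KO clone 1 (-1.04, adjusted p = 0.12), with a pseudocount of 1 (adjusted p = 0.10) and without the filter (adjusted p = 0.087). It held in 10 of 13 alternatives, and its adjusted p ranged from 5.5e-06 to 0.12 over them.

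Dnmt1, the maintenance methyltransferase, separated the genotypes on all 3 of its probe sets without passing the test. The representative one read 974 and 1039 in WT against 571 and 635 in KO. WT clones differed from each other by only 0.09 on the log2 scale, and the KO clones, by 0.15, while the KO mean was lower by a log2 change of -0.72 ± 0.18 (1.65-fold; 95% confidence interval -1.13 to -0.31; limma, adjusted p = 0.065). A second probe set read 908 and 956 in WT, versus 528 and 714 in KO, with a log2 change of -0.59 (adjusted p = 0.15). The dimmest read 381 and 447 in WT, versus 282 and 358 in KO, with -0.36 (adjusted p = 0.34). Both of these carry the suffix _x_at, which marks probes that can match other transcripts. On its representative probe set, Dnmt1 passed under 4 of 13 alternatives, and over all 13 its log2 change ran from -1.07 to -0.55 and its adjusted p from 0.0043 to 0.27. Across Dnmt1 and Uhrf1, KO clone 1 lay below KO clone 2 on all 5 probe sets, as the values above show.

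The de novo enzymes did not share a direction. Dnmt3a was the only member gene with a positive change on its representative probe set. That probe set (1423064_at) read 692 and 556 in WT clones 1 and 2, versus 1001 and 1301 in KO clones 1 and 2. Both KO clones were above both WT clones, and the log2 change was 0.86 ± 0.21 (1.82-fold; 95% confidence interval 0.39 to 1.34; limma, adjusted p = 0.061). It did not pass, and it passed under 4 of 13 alternatives. In the deposited intensities, where WT clone 1 was brightest, the groups overlapped (984 and 468 in WT, 829 and 1178 in KO), with a log2 change of 0.53 (adjusted p = 0.68).

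Other Dnmt3a probe sets varied. The next brightest (1423066_at) read 595 and 417 in WT, versus 786 and 821 in KO, with a log2 change of 0.67 ± 0.21 (adjusted p = 0.12). A dimmer one (1423063_at) read 102 and 93.3 in WT, versus 120.04 and 138 in KO, with 0.35 (adjusted p = 0.32). These also had both KO clones above both WT clones. In the remaining probe sets the groups overlapped, at 111 and 110.0 in WT against 99.4 and 147 in KO (log2 change 0.12) and at 34.4 and 61.2 in WT against 28.3 and 54.4 in KO (-0.16). The genotypes were thus separated on 3 of the 5 probe sets, among them the brightest 2. Averaged over its 5 probe sets, Dnmt3a had 0.37 (adjusted p = 0.23). The annotation used does not say which Dnmt3a isoform each probe set detects.

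Dnmt3b, the other de novo enzyme, read 2507 and 3254 in WT against 2105 and 2294 in KO on its representative probe set. Both KO clones were lower, but the WT clones differed by 0.37 on the log2 scale, about as much as the change of -0.38 ± 0.20 (95% confidence interval -0.83 to 0.08; limma, adjusted p = 0.32). Its other probe set read 1054 and 554 in WT, versus 707 and 799.9 in KO. There the WT clones lay on both sides of the KO clones, and the log2 change was -0.025 (adjusted p = 0.97). Dnmt3l, the cofactor that stimulates both enzymes, has 1 probe set, of the _s_at type and so able to match related transcripts. It read 2269.6 and 2598 in WT, versus 1754 and 1985 in KO. Both KO clones were lower, with a log2 change of -0.38 ± 0.19 (95% confidence interval -0.80 to 0.05; adjusted p = 0.29) that did not pass.

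**Figure D2:**
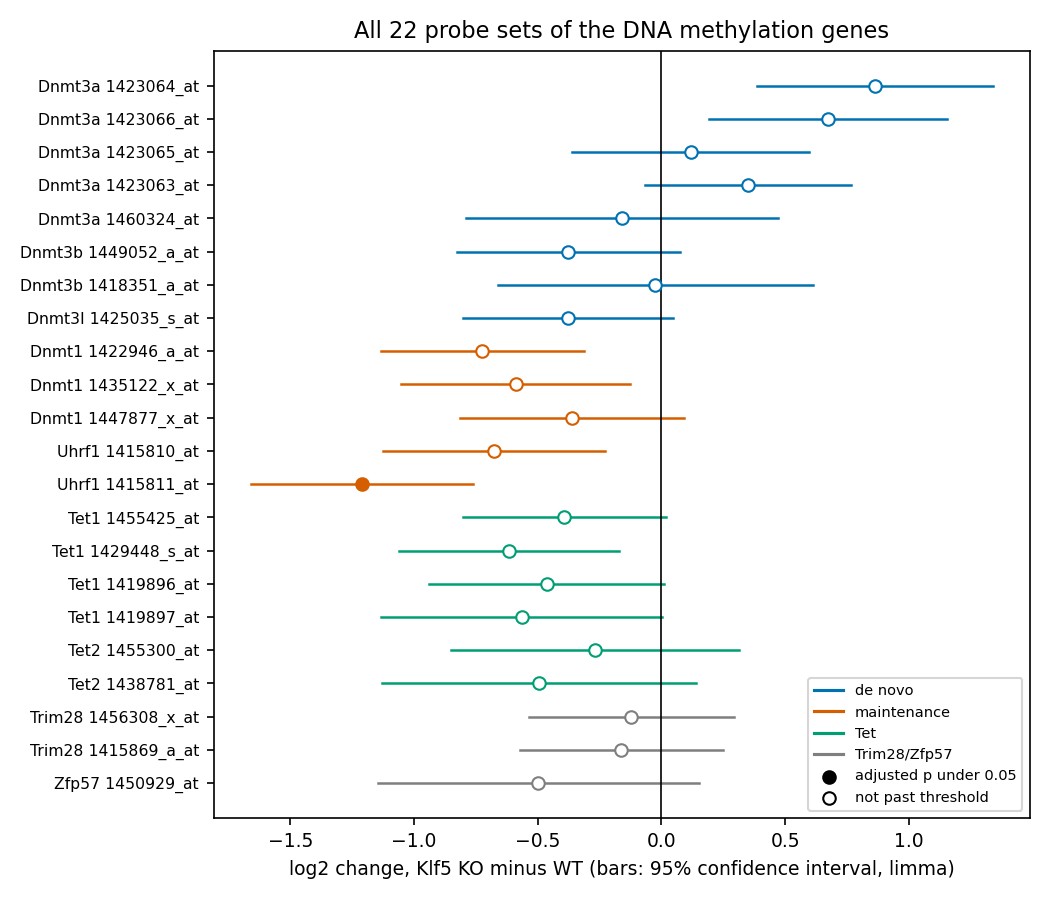
Log2 change (Klf5 KO minus WT) of all 22 probe sets with 95% confidence intervals from limma, coloured by role, with a filled point for an adjusted p under 0.05. Only the dimmer Uhrf1 probe set is filled, at -1.21, and the highest point is that of Dnmt3a at 0.86.

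Tet1, the main methylcytosine dioxygenase of ES cells, was lower in both KO clones on all 4 of its probe sets, none of which passed by limma (1 lower at an unadjusted p under 0.05). The representative one read 1556 and 1447 in WT clones, versus 1199.6 and 1082 in KO clones. Its log2 change was -0.39 ± 0.18 (1.31-fold; 95% confidence interval -0.80 to 0.02; adjusted p = 0.26). A second read 1341 and 1124 in WT, versus 723 and 875 in KO, with -0.62 ± 0.20 (adjusted p = 0.13), and its suffix _s_at marks probes that can match related transcripts. The dim ones read 347 and 249 in WT against 197 and 221 in KO, and 28.05 and 57.8 against 23.5 and 21.6, with changes of -0.46 and -0.56. In the dimmest the WT clones differed by 0.74 on the log2 scale, more than the genotypes did.

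Tet2, a second dioxygenase, did not separate the genotypes. Its probe sets read 149 and 269 in WT against 167 and 162 in KO (log2 change -0.27, adjusted p = 0.60), and 96.9 and 129 in WT against 105 and 51.9 in KO (-0.49, adjusted p = 0.35). In the first the WT clones spanned the KO clones, and its change turned positive, 0.13, without WT clone 2. In the second, only KO clone 2 was below both WT clones.

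Of the repressor pair that protects imprints, Trim28 read 6027 and 6348 in WT against 5238 and 5829.7 in KO. Its log2 change was -0.16 ± 0.18 (95% confidence interval -0.57 to 0.25; adjusted p = 0.66), and its other probe set, marked _x_at, had -0.12 with groups that overlapped. Both Trim28 changes became positive (0.013 and 0.054) after centring on the ES cell markers. Zfp57, the zinc finger protein that recognises methylated imprinting control regions, read 121 and 242 in WT, versus 129.8 and 105 in KO. Its WT clones differed by 0.91 on the log2 scale, more than the change of -0.50 ± 0.29 (adjusted p = 0.36), and without WT clone 2 that change was -0.041. The interval of Zfp57 reached from -1.15 to 0.15, which includes 0.

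In 8 of the 22 probe sets a gap between clones of 1 genotype exceeded the change between genotypes. These were 2 of Dnmt3a, 1 of Dnmt3b, 1 of Tet1, both of Tet2, 1 of Trim28 and that of Zfp57. None of the 5 probe sets of Dnmt1 and Uhrf1 was among them.

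The contrast between de novo, maintenance and Tet genes was examined clone by clone as the mean log2 difference from the WT mean, with 1 probe set per gene. Dnmt1 and Uhrf1 had a mean of -0.83 in KO clone 1 and -0.57 in KO clone 2. Tet1 and Tet2 had -0.28 and -0.38. Dnmt3a, Dnmt3b and Dnmt3l had -0.076 and 0.15. De novo genes were thus above maintenance genes by 0.75 and 0.72 in the KO clones, where the WT clones deviated by -0.058 and 0.058, and above Tet genes by 0.21 and 0.52, where the WT clones deviated by 0.13 and -0.13. The distance to the maintenance genes was larger than the spread between clones of a genotype. It ranged from 0.67 to 0.79 over the alternatives, and that to the Tet genes from 0.21 to 0.53.

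The de novo mean hides a split, since Dnmt3a had 0.68 and 1.05 in KO clones 1 and 2, Dnmt3b had -0.44 and -0.31 and Dnmt3l had -0.47 and -0.29. Tet1 had -0.32 and -0.47, so Dnmt3b and Dnmt3l were close to it in sign and size, and Dnmt3a was the only de novo gene with positive values. No test was made of these differences, because the genes were grouped with results known, and 2 arrays against 2 cannot give an exact two-sided permutation p below 0.333.

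**Figure D3:**
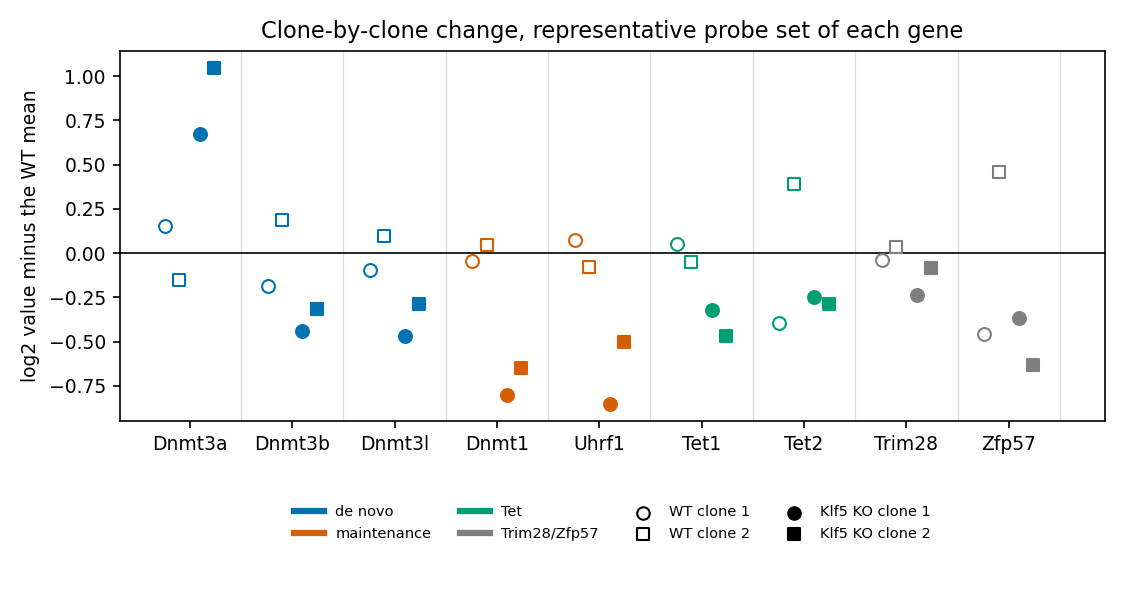
Log2 value of each gene's representative probe set minus its WT mean, for each clone (open symbols WT, filled symbols Klf5 KO, circles clone 1 and squares clone 2), coloured by role. KO clones of Dnmt3a sit at 0.68 and 1.05, those of Dnmt1 at -0.80 and -0.65 and those of Uhrf1 at -0.85 and -0.50. WT clones of Tet2 and Zfp57 are 0.79 and 0.91 apart.

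Genes that work with the members were read from lists of the pathway. Together 7 lists held 85 measured genes, of which 4 rose, 2 fell and 79 did not pass, with a median log2 change of -0.099. These counts take each gene at its representative probe set. For these lists and the marker lists below, the shares over all genes tested were 2.94% called higher and 1.34% called lower. At an unadjusted p under 0.05 by limma they were 10.9% higher and 10.6% lower. Among 8 other maintenance cofactors, 0 passed (limma; 3 lower and 0 higher at an unadjusted p under 0.05), with a median of -0.34. Both KO clones read below both WT clones for 5 of the 8 and above for 0, beside 29.7% and 25.9% of all genes. Usp7, a deubiquitinase that binds Dnmt1 and Uhrf1, had -0.41 on its representative probe set (adjusted p = 0.26), while 1 of its 6 other probe sets passed as lower (-0.89, adjusted p = 0.038) and those 6 ranged from -0.89 to 0.034. Usp7 was named after its values were seen. Lig1, the ligase that seals the newly copied strand, had the largest change, -0.62 (adjusted p = 0.13). Of 6 methyl-CpG binding proteins, 0 passed (1 lower and 1 higher at an unadjusted p under 0.05), with a median of -0.23, and Zbtb4, a zinc finger reader of methylated DNA, had 0.83 (adjusted p = 0.054) from a dim 15.3 and 10.1 in WT. Of its other dim probe sets, 1 had 0.71 and 1 had -0.040. The filter took the mean of all arrays, so the Zbtb4 probe sets with positive changes were kept only through KO. Their means were 12.7 in WT and 35.1 in KO for the representative, and 12.3 and 29.9 for the other.

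Among 16 genes of the Trim28 complex and heterochromatin, 2 fell, 0 rose and 14 did not pass, with a median of -0.23. Ehmt2 (G9a), a histone H3 lysine methyltransferase, read 1049.6 and 1048.6 in WT against 538 and 589 in KO and fell by 0.88 ± 0.18 (adjusted p = 0.032). Its other probe set fell as well, by 1.04 (adjusted p = 0.020). Zfp809, a zinc finger protein that brings Trim28 to retroviral sequences, read 530.0 and 498 in WT, versus 282 and 275 in KO and fell by 0.85 ± 0.18 (adjusted p = 0.036). Both calls on these representative probe sets were lost whichever array was left out. After centring on the ES cell markers neither passed, and their log2 changes were -0.70 and -0.67.

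Of 13 other demethylation and base excision genes, Gadd45g, a growth arrest gene of a family linked to active demethylation, rose by 1.04 ± 0.18 (adjusted p = 0.019), from 205 and 229 in WT to 486 and 438 in KO, and the others did not pass on their representative probe sets (median -0.013). Idh2, an enzyme that makes the Tet cosubstrate alpha-ketoglutarate, had -0.50 there (adjusted p = 0.22), but its dimmer probe set fell by 1.10 (adjusted p = 0.032). Idh1, of the same list, went the other way without passing. Its probe sets had 0.47 (adjusted p = 0.20 by limma) and 0.52 (adjusted p = 0.16). Both genes were named after their values were seen. Of 12 other regulators, 0 passed (2 lower and 1 higher at an unadjusted p under 0.05; median -0.12). Dppa3 (Stella), which shields the maternal genome from demethylation and can displace Uhrf1 from chromatin, had the largest change there, 0.96 ± 0.29 (adjusted p = 0.11), reading 343 and 674 in WT, versus 895 and 1007 in KO. Of 11 methyl donor genes, Bhmt, which remethylates homocysteine with betaine, rose by 1.33 ± 0.22 (adjusted p = 0.014), from 73.1 and 111 to 238 and 268 (median of the list -0.12).

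Germ line genes whose promoters are usually methylated in somatic cells were read as well. Among the 19 measured, 2 passed as higher and none as lower by limma (0 lower and 6 higher at an unadjusted p under 0.05), with a median of 0.32, and 14 of 19 had a positive sign. Of all 13023 genes tested, 2.94% passed as higher and 1.34% as lower, 10.9% and 10.6% did at the unadjusted p, and 6144 had a positive sign. Because the filter took the mean of all arrays, a gene dim in WT could be kept through KO, as Brdt was (mean 11.6 in WT, 19.4 in KO). Dazl, an RNA-binding protein of germ cells, read 203 and 191 in WT, versus 437 and 442 in KO and rose by 1.10 ± 0.18 (adjusted p = 0.013), while its other probe set had 0.79 (adjusted p = 0.056). Tex101, a germ cell surface protein, rose by 1.12 ± 0.23 (adjusted p = 0.035) from 18.04 and 35.7 to 68.1 and 82.3. The calls of Gadd45g, Bhmt, Dazl and Tex101 were all lost without KO clone 1 and all lost without KO clone 2. DNA methylation itself was not measured in these arrays.

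Markers of other early lineages were read beside the members. Of 6 primitive endoderm markers 0 passed (limma; 0 lower and 2 higher at an unadjusted p under 0.05), and the summed level was 516 and 449 in WT, versus 760.02 and 779 in KO. Col4a1, the brightest of the list, alone had a mean of 318 in WT and 550 in KO. Gata4 (mean 15.5 in WT, 17.2 in KO) and Sox17 (17.6 and 11.5) were dim. The list shares Pdgfra with the fibroblast list. Of 6 trophectoderm markers, the keratin Krt18 fell by 0.90 (adjusted p = 0.038) and the others did not pass (limma; 2 lower and 1 higher at an unadjusted p under 0.05). The summed level was 3309 and 3347 in WT, versus 2284 and 2562 in KO. Krt18 alone had a mean of 1243 in WT and 661 in KO, and the keratin Krt8 had 933 and 593. By sign, 4 of the markers were negative and 2 positive, the latter being Hand1 (0.70) and Eomes (0.27). Only markers that passed the filter on dim signals were counted as measured, so these levels cannot show whether a lineage was absent. Whether the dim markers were expressed was not tested. The part of these lists in the members' values was not tested either.

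**Figure D4:**
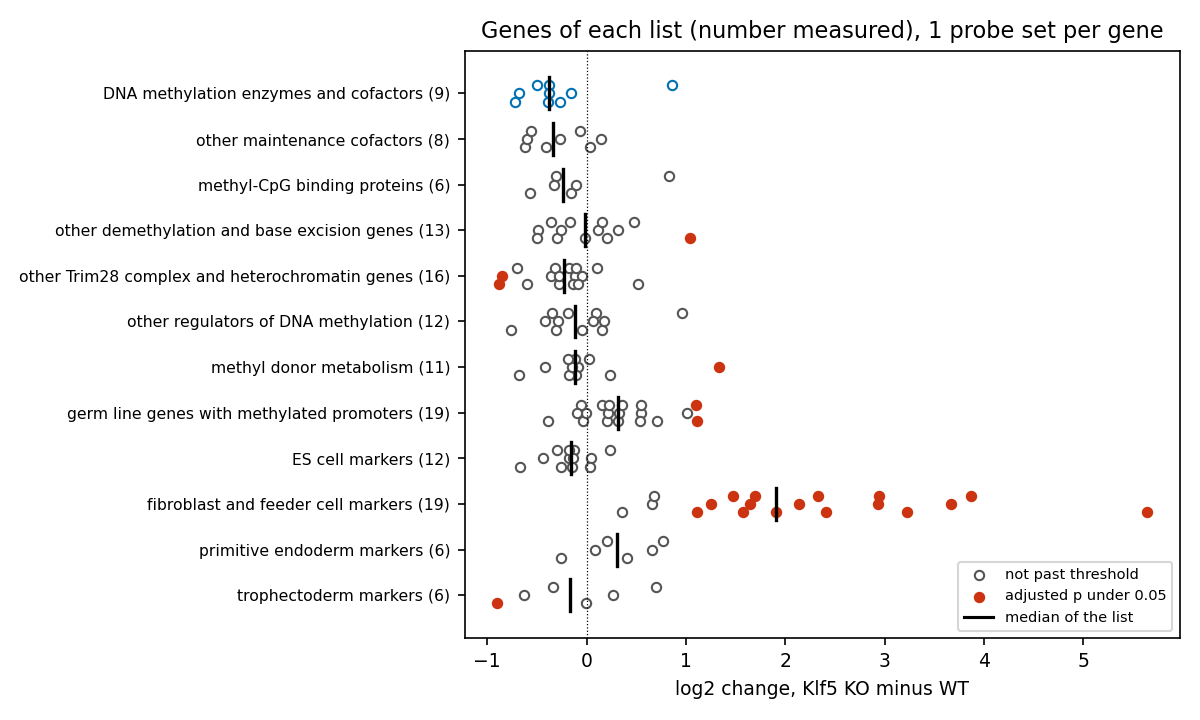
Log2 change (Klf5 KO minus WT) of every measured gene of each list, 1 probe set per gene, with red for an adjusted p under 0.05 and a black line at each list's median. The medians are -0.38 for the DNA methylation genes, -0.34 for other maintenance cofactors, 0.32 for germ line genes, -0.16 for ES cell markers and 1.91 for fibroblast and feeder cell markers.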

How the data were processed

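The deposited values are linear intensities, 1 for each probe set on each array, in 45101 rows that include 64 control probe sets (0.0168 to 14472). Per the labels' protocols, biotin-labelled total RNA was hybridised to Affymetrix arrays. The labels and file used here do not name the probe summary or the array scaling. Arrays were grouped by their titles. Intensities were quantile normalized and log2(intensity + 16) was taken, so fold changes are on that scale and understate those of dim genes. Probe sets with a mean below the 40th percentile (intensity 13.0) were removed, which left 27022. The fit was limma 3.58.1 (R 4.3.3, lmFit, then eBayes, with 6.87 prior and 2 residual degrees of freedom), KO against WT over all kept probe sets, with Benjamini-Hochberg adjustment and a threshold of 0.05. The number of arrays limits the precision. The code was checked on simulated data.

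The platform annotation gave 34945 probe sets 1 symbol, 932 several and 9160 none. Gene IDs of 34741 matched the mouse reference table (GRCm38.p6). All 10 genes had promoter windows in the RefSeq-derived table. Probe sets with several symbols are not named. A gene's representative was its brightest kept probe set, with _x_at probe sets used only if nothing else was kept. The members and lists were chosen with earlier results of these data known. Named were all members, Klf5, in each list without a member every gene past the threshold or the 1 of largest change, up to 3 markers per marker list, and the 3 genes most like the member with the smallest adjusted p. Usp7, Idh1, Idh2, Esrrb, Dcn, Prrx1, Col6a1, Brdt, Gata4, Sox17, Krt8, Hand1 and Eomes were named as well, after their values were seen. Other settings were pseudocounts of 1 and 64, no filter or one at the 60th percentile, no normalization, median centring, a variance trend, a block for the clone number, leaving out each array, and averaging the probe sets of a gene. Centring on ES cell markers was added after seeing the data.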

Additional observations from a re-analysis of the deposited data

How the results depend on the processing

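Counts of calls moved with the settings more than the directions did. Over all probe sets 659 were higher and 337 lower. These became 160 and 29 at pseudocount 1, 1145 and 915 at pseudocount 64, 164 and 26 without the filter, 809 and 615 with the stricter filter, 215 and 117 as deposited, 640 and 1420 after median centring, 1118 and 837 with a variance trend, and 874 and 115 after centring on ES cell markers. Median centring thus made 68.9% of calls lower, against 33.8%, and centring on ES cell markers 11.6%. Leaving out 1 array gave 169 to 530 higher and 34 to 123 lower, with the fewest without KO clone 1; the array left alone was assumed to vary like the other genotype.

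Member genes called were 0 higher and 0 lower in the main setting and in every leave-out of 1 array. They were 1 higher and 2 lower with a pseudocount of 64 and with the variance trend, 1 and 1 with the stricter filter, 0 and 2 after median centring, 1 and 0 after centring on ES cell markers, and 0 and 1 (Uhrf1) when probe sets of a gene were averaged. Member probe sets called were 0 higher and 1 lower, and became 2 and 5 with a pseudocount of 64, 1 and 2 with the stricter filter, 0 and 5 after median centring, 2 and 4 with the variance trend, and 1 and 1 after centring on ES cell markers. With a pseudocount of 1 or no filter 0 were lower, and leave-outs gave 0 to 1. The 7 pathway lists had 4 higher and 2 lower genes. They had 0 and 0 with a pseudocount of 1, without the filter and as deposited, 9 and 9 with a pseudocount of 64, 9 and 8 with the variance trend, 4 lower with the stricter filter, 10 lower after median centring and 0 lower after centring on ES cell markers. Leave-outs gave 0 to 3 higher and 0 lower.

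De novo minus maintenance genes was 0.74, 0.68 when probe sets of a gene were averaged, and 0.67 to 0.79 with 1 array left out. Signs reversed only for uncalled probe sets. Dnmt3a 1423065_at had -0.11 as deposited, -0.069 after median centring and, with 1 array left out, -0.13 (without KO clone 2) to 0.37. Dnmt3a 1460324_at had 0.016 after centring on ES cell markers, 0.15 without WT clone 2 and 0.18 without KO clone 1, in a leave-out range of -0.50 to 0.18. Dnmt3b 1418351_a_at had 0.15 after centring on ES cell markers, 0.44 without WT clone 1 and 0.063 without KO clone 1, in a leave-out range of -0.48 to 0.44. Trim28 had 0.054 and 0.013 after that centring, and Tet2 1455300_at had 0.13 without WT clone 2, in a leave-out range of -0.64 to 0.13. The causes of these moves were not tested.

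Clone numbers pair the arrays only by name: the correlation of WT clone 1 minus 2 with KO clone 1 minus 2 across probe sets was 0.055. With the clone number as a replicate block, 891 probe sets were higher and 499 lower, member calls stayed at 0 higher and 1 lower probe set, and the pathway lists had 7 higher and 2 lower.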

Other observations

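The dimmer Uhrf1 probe set had the smallest adjusted p among the members, and the genes nearest to its pattern over the 4 arrays were Ntn1, Pola1 and Aoah. Likeness was the root mean square distance between log2 values after subtracting each gene's WT mean, and it was 0.042 for Ntn1, 0.044 for Pola1 and 0.047 for Aoah. Pola1, the catalytic subunit of DNA polymerase alpha, which starts new strands at replication, read 859 and 761 in WT, versus 303 and 411 in KO (log2 change -1.16, limma, adjusted p = 0.019). Ntn1, the guidance molecule netrin 1, read 118 and 96.6 in WT, versus 32.3 and 42.7 in KO (-1.21, adjusted p = 0.014). Aoah, a lipase that inactivates bacterial lipopolysaccharide, read 229 and 189 in WT, versus 68.2 and 89.4 in KO (-1.25, adjusted p = 0.013). They were picked for this likeness among 13023 genes, so the match is a description.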
